A study of Mus musculus with 10 samples.

Results

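The Dlx homeobox family is described here in the dental mesenchyme of the adult mouse lower incisor after its sensory nerve was cut. The members are Dlx1, Dlx2, Dlx3, Dlx4, Dlx5 and Dlx6, chosen by gene symbol in the array's annotation. They are 6 of the 18193 genes with a probe set of their own, and 8 probe sets name them, 2 each for Dlx3 and Dlx4 and 1 for each other member. Where a gene has several probe sets the brightest over all 10 arrays is used, and the remaining ones serve as a check. Of the 10 arrays of total RNA, 5 came from lower incisors on the side where the inferior alveolar nerve had been resected 2 weeks before, called denervated, and 5 from the contralateral incisors of the same operation. All mice were wild-type C57BL/6J at postnatal day 60, and their sex is not given in the labels. Every mouse had been operated on and no sham operation is among the groups, so an effect of losing the nerve and an effect of surgery cannot be told apart. Sample numbers were taken to mark the mouse, so that each of mice 1 to 5 gave 1 denervated and 1 contralateral incisor.

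DLX proteins are homeodomain transcription factors, named after the Distal-less gene of the fruit fly. In mammals their genes lie in pairs of neighbours, and the RefSeq gene table has Dlx1 next to Dlx2 on chromosome 2, Dlx3 next to Dlx4 on chromosome 11 and Dlx6 next to Dlx5 on chromosome 6. In the embryonic jaw Dlx1 and Dlx2 are active in both upper and lower jaw mesenchyme, whereas Dlx5 and Dlx6 mark the lower jaw and are needed for its identity. Mice without Dlx1 and Dlx2 lack upper molars, and mutations of human DLX3 cause tricho-dento-osseous syndrome, with changes of hair, enamel, dentin and bone.

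The start regions of 2 members and of Dlx6os1, an antisense transcript of the Dlx5 and Dlx6 locus also called Evf2, are shown as the ends of the range of base content among the family's windows. Each line gives the 250 bases upstream of a RefSeq transcript start (build GRCm38.p6), 5′ to 3′ on the gene's strand. Capitals mark TAATTA, a core that homeodomain proteins bind, which reads the same on both strands. Windows were found for 5 of the 10 genes of the family and its antisense transcripts, 2 of them members.
Dlx1, chr2:71529195-71529444, strand +: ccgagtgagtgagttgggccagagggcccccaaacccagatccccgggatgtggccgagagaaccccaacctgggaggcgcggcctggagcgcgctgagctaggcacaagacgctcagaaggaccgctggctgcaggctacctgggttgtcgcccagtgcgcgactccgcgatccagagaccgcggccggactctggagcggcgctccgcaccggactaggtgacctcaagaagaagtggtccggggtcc
Dlx2, chr2:71546755-71547004, strand -: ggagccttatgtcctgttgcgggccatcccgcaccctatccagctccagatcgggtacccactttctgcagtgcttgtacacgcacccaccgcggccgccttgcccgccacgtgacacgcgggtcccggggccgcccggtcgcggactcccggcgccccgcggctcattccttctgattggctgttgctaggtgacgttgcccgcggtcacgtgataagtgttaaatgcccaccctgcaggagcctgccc
Dlx6os1, upstream start, chr6:6869534-6869783, strand -: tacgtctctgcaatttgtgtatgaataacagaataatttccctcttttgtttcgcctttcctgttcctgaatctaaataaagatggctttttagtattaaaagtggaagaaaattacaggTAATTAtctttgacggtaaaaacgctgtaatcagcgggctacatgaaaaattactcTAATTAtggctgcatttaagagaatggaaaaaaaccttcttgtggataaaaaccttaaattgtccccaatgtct
Dlx6os1, downstream start, chr6:6861684-6861933, strand -: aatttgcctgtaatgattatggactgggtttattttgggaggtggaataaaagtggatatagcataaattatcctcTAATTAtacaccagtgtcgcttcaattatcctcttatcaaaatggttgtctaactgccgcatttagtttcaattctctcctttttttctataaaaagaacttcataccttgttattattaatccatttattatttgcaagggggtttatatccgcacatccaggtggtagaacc
The windows of Dlx1 and Dlx2 hold 22 and 24 CG pairs at a GC content of 68.0% and 66.4%, and no TAATTA. Those of Dlx6os1 hold 5 and 3 CG pairs at 33.2% and 34.0% GC, with 2 and 1 copies of TAATTA. The remaining windows, of Dlx6os2 at the same locus and of Dlx4os, are not printed; each holds 7 CG pairs at 52.4% GC and no TAATTA, so windows of 1 locus differ too. Over all 32851 windows of this length in the table the medians were 6 CG pairs and 52.4% GC, and 4.84% held the motif. The match is a description of these letters and no evidence of binding.

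The values are log2 intensities between -0.16 and 13.2 with array medians from 1.48 to 1.54. That is low for RMA alone, so a further correction by the authors is possible, and levels are read only within this series. Values below 2, which 40.8% of the genes had on average, are close to the bottom of the scale. The precision is limited by the number of arrays, with a median standard error of 0.10 for a log2 difference. Denervated array 3 stood apart in the enamel-forming epithelium: the mean log2 level of 11 measured epithelial markers was 5.96 there, against 8.73 to 9.21 in the other denervated and 8.47 to 9.24 in the contralateral arrays. Denervated array 2 stood apart in 3 lists. The mean of 4 Schwann cell markers was 4.42, against 1.91 to 2.77 in the other denervated and 1.95 to 2.48 in the contralateral arrays. The mean of 6 pericyte and smooth muscle markers was 7.99 (6.76 to 7.42 and 6.34 to 6.95), and that of 8 odontoblast markers 8.68 (9.21 to 9.44 and 9.22 to 9.43). In the labelled tissue, 6 of 8 measured dental mesenchyme markers had a mean of at least 4, while Barx1, a mesenchymal factor of molar development, was near the bottom of the scale. All 11 measured dental epithelium markers and all 8 odontoblast markers also had a mean of at least 4, so the samples held RNA of these cells as well, and which cells the Dlx transcripts came from cannot be told from them. In bulk tissue, fewer cells of a type and less RNA per cell cannot be told apart.

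All 6 Dlx genes had a mean of at least 4 in these incisor samples, as did 7919 of the 18193 genes, and none passed the test between the sides. The denervated minus contralateral differences ran from -0.04 for Dlx2 to 0.26 for Dlx4 on the log2 scale, with Dlx1, Dlx4 and Dlx5 above 0 and Dlx2, Dlx3 and Dlx6 below 0. The median was 0.02, as over all genes (0.02), and was 0.04 over the genes with a mean of at least 4. By limma with Benjamini-Hochberg adjustment over 18193 genes 0 of 6 members passed an adjusted p of 0.05 (smallest 0.790), where 0.00% of all genes did. With the mouse as a block 0 passed as well (smallest adjusted p of a member 0.512). At an unadjusted p under 0.05 there were 0 members in either fit, against 6.21% of all genes without and 9.92% with the block. No member had the same direction in 5 of 5 mice, where 10.4% of all genes did, and in all 6 the values of the groups overlapped, as in all but 0.951% of genes. A test that misses its threshold does not show that the groups are alike, and the intervals below give the range of sizes for each member.

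**Figure D1:**
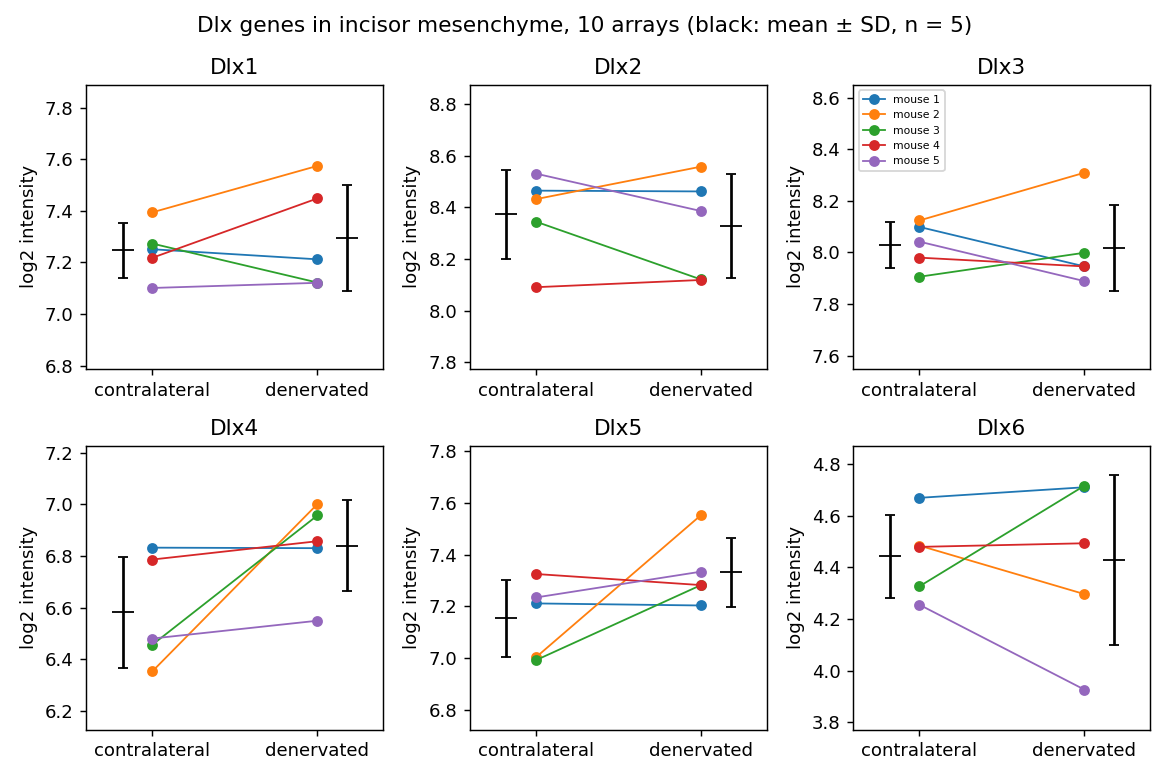
Log2 intensity of the 6 Dlx genes (brightest probe set each) in the contralateral and denervated incisor of each of 5 mice, joined by a line, with mean ± SD of each group in black; all panels span the same number of log2 units. Dlx4 and Dlx5 are higher on the denervated side in mice 2 and 3 (by 0.65 and 0.50, and by 0.55 and 0.29) and differ by at most 0.10 in the others, and the groups overlap in every panel.

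Dlx1 and Dlx2, the pair active throughout the embryonic jaw mesenchyme, had mean differences within 0.05 log2 units of 0. Dlx1 had log2 values of 7.21, 7.57, 7.12, 7.45 and 7.12 in the denervated incisors of mice 1 to 5 and 7.25, 7.39, 7.27, 7.22 and 7.10 in the contralateral ones. In mice 2, 4 and 5 the denervated value was the higher, in mice 1 and 3 the lower. The means were 7.30 ± 0.21 and 7.25 ± 0.11 (SD, n = 5), a difference of 0.05 (95% confidence interval -0.18 to 0.27, limma adjusted p 0.932) and of -0.02 without denervated array 2. On the linear scale the interval spans 0.886-fold to 1.21-fold.

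Dlx2 had 8.46, 8.56, 8.12, 8.12 and 8.39 in the denervated and 8.47, 8.43, 8.34, 8.09 and 8.53 in the contralateral incisors of mice 1 to 5. Both incisors of mouse 4 were low, and the largest gap within a mouse, 0.22 in mouse 3, was smaller than the gap between mouse 4 and the others on the contralateral side. The means were 8.33 ± 0.20 and 8.37 ± 0.17 (SD, n = 5), and the difference was -0.04 (-0.29 to 0.20, limma adjusted p 0.946). With the mouse as a block the interval narrowed to -0.22 to 0.13. The difference was 0.01 without denervated array 3 and 0.01 without denervated array 4. The neighbours Dlx1 and Dlx2 were nearly uncorrelated over the arrays (Pearson's r 0.14, Spearman's rho 0.01, 10 arrays from 5 mice, given as a description).

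Dlx3 acts in enamel and dentin formation and can activate the dentin gene Dspp. By the brightest probe sets it was the steadiest member, with an SD of 0.13 over the 10 arrays. Of 7919 genes with a mean of at least 4, whose median SD was 0.18, 23.4% varied less. Its values were 7.95, 8.31, 8.00, 7.95 and 7.89 in the denervated and 8.10, 8.12, 7.91, 7.98 and 8.04 in the contralateral incisors. Denervated array 2 was the highest and the others lay within the contralateral range or just below it. The difference was -0.01 (-0.21 to 0.18, limma adjusted p 0.982). It was 0.01 without any 1 of denervated array 1, denervated array 4 and contralateral array 2, 0.00 without contralateral array 1 and 0.02 without denervated array 5, each above 0. The second probe set, at 4.01 ± 0.17 against 4.03 ± 0.23 (SD, n = 5), differed by -0.02 (-0.28 to 0.24) and had the same direction as the first in 5 of 5 mice. Its r with the first was 0.50. Its SD over the 10 arrays was 0.19, above that of the probe sets of Dlx1, Dlx2 and Dlx5.

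Dlx4, the neighbour of Dlx3 and a member less studied in the tooth, had the largest difference. It measured 6.83, 7.00, 6.96, 6.86 and 6.55 in the denervated incisors and 6.83, 6.35, 6.46, 6.79 and 6.48 in the contralateral ones. The denervated incisor was higher by 0.65 in mouse 2 and 0.50 in mouse 3, by 0.07 in mice 4 and 5, and equal to 2 decimals in mouse 1. The means were 6.84 ± 0.18 and 6.58 ± 0.21 (SD, n = 5), a difference of 0.26 ± 0.12 (SE) or 1.20-fold. The 95% interval was -0.00 to 0.52, limma's unadjusted p 0.0502 and its adjusted p 0.790. Permuting the 10 arrays (exact, two-sided) gave an unadjusted p of 0.0635, and exact sign flips over the 5 mice gave 0.125, where 0.0625 is the smallest possible. The second probe set had 6.44, 6.96, 6.62, 5.59 and 5.97 against 6.37, 6.25, 5.91, 5.66 and 5.54, a difference of 0.37 ± 0.25 (SE), with the largest gaps again in mice 2 and 3 (0.71 and 0.72). The probe sets had the same sign in 3 of 5 mice and an r of 0.50 over the 10 arrays.

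Dlx5, a lower jaw gene that promotes osteoblast differentiation, also had its largest differences in mice 2 and 3. Its denervated values were 7.20, 7.55, 7.28, 7.28 and 7.33, and its contralateral values 7.21, 7.00, 6.99, 7.33 and 7.23. Its differences were 0.55 in mouse 2, 0.29 in mouse 3 and 0.10 in mouse 5, with -0.01 and -0.04 in mice 1 and 4. In mice 2 and 3 the contralateral values, 7.00 and 6.99, were the lowest of the 10 arrays. Denervated array 2, at 7.55, was the highest, above the 7.33 that the others reached. The difference of means was 0.18 ± 0.09 (SE; -0.02 to 0.38, limma adjusted p 0.791). Without both arrays of mice 2 and 3, an alternative chosen after seeing the data and fitted with the mouse as a block, the difference was 0.05 for Dlx4 and 0.02 for Dlx5. Without the denervated arrays 2 and 3 alone it was 0.16 for Dlx4 and 0.12 for Dlx5.

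Dlx6, the partner of Dlx5 in lower jaw identity, differed by -0.19 in mouse 2 and by 0.39 in mouse 3. It had 4.71, 4.30, 4.72, 4.49 and 3.93 in the denervated and 4.67, 4.48, 4.33, 4.48 and 4.26 in the contralateral incisors. The denervated value was the lower in mice 2 and 5 only. The difference was -0.01 (-0.34 to 0.31, limma adjusted p 0.987). It was 0.11 without denervated array 5, 0.02 without denervated array 2 and 0.04 without contralateral array 1. By the brightest probe sets Dlx6 varied most of the members, with an SD of 0.24 over the arrays, while the second probe set of Dlx4 had 0.48. The r of Dlx6 with Dlx5 was -0.21 (rho -0.32, 10 arrays).

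**Figure D2:**
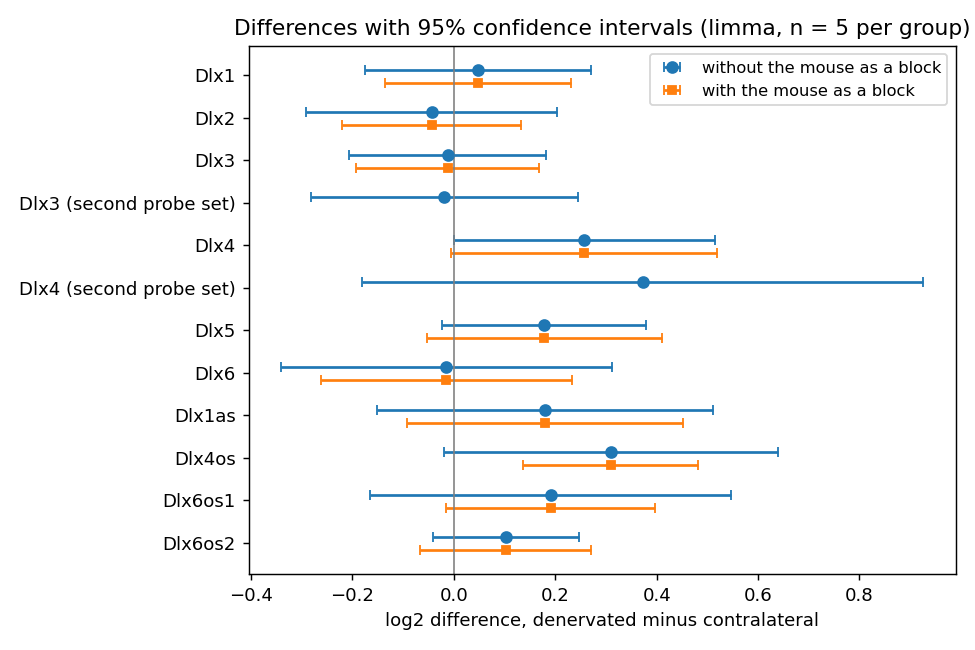
Log2 difference (denervated minus contralateral, horizontal axis) of each Dlx gene, the second probe sets of Dlx3 and Dlx4 and the 4 antisense transcripts, with 95% confidence intervals from limma (n = 5 arrays per group), without (blue) and with (orange) the mouse as a block; second probe sets are shown without the block only. The intervals of all 6 Dlx genes include 0 in both fits, and that of Dlx4os lies above 0 with the block, before any adjustment for the number of genes.

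The 4 antisense transcripts measured at these loci were all higher on average on the denervated side, and none passed. Such RNAs are made from the strand opposite a Dlx gene or between a pair, and in the embryonic forebrain Dlx6os1 acts with DLX proteins at enhancers of the locus. Over all genes 55.8% had a higher mean there. Dlx4os, transcribed next to Dlx4, had 6.43, 6.33, 6.49, 6.74 and 6.06 in the denervated and 6.34, 6.01, 6.07, 6.39 and 5.70 in the contralateral incisors. It was higher in 5 of 5 mice, by 0.09 to 0.43, as were 6.58% of all genes. The difference was 0.31 ± 0.15 (SE), with a limma adjusted p of 0.790 and, once the mouse was a block, of 0.372. Dlx1as differed by 0.18 ± 0.15 and was higher in 4 of 5 mice.

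Dlx6os1 had 7.24, 7.21, 7.33, 7.66 and 7.24 in the denervated and 7.08, 6.94, 7.24, 7.71 and 6.76 in the contralateral incisors. Both incisors of mouse 4, where Dlx2 was low, were the highest, and it was higher on the denervated side in the 4 other mice. The difference was 0.19 ± 0.16 (SE, limma adjusted p 0.830). Dlx6os2 lay between 0.63 and 0.91 in all 10 arrays, at the bottom of the scale, where differences have little meaning.

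**Figure D3:**
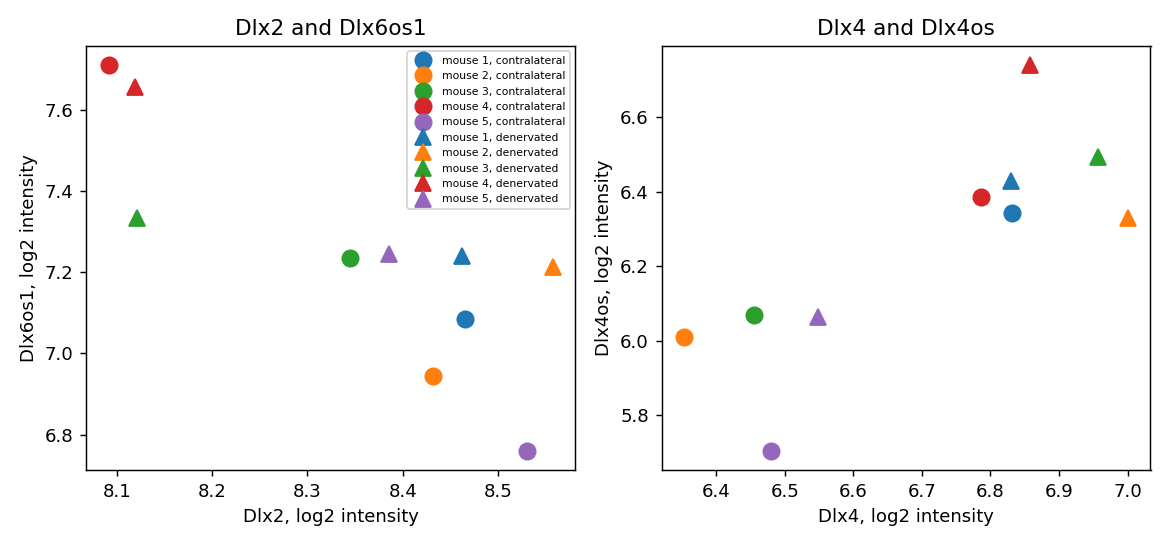
Log2 intensity of Dlx6os1 against Dlx2 (left) and of Dlx4os against Dlx4 (right) in the 10 arrays, coloured by mouse, with circles for contralateral and triangles for denervated incisors. Dlx6os1 is highest and Dlx2 lowest in both incisors of mouse 4. Dlx4os and Dlx4, the latter by its brightest probe set only, lie along a common upward slope.

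Over the 10 arrays the members had no common pattern, and the 15 pairs of members had Pearson's r from -0.27 to 0.72 with a median of 0.22. These r values describe 10 arrays from 5 mice, in which incisors of a mouse are not independent, and carry no test. The highest was that of Dlx4 with Dlx5 (r 0.72, rho 0.60), which was 0.37 after leaving out the 2 arrays farthest from the median of Dlx4 and 0.54 after leaving out the 2 farthest from that of Dlx5. Dlx4 with its neighbour Dlx4os had r 0.80 (rho 0.71), and 0.80 over the 8 arrays nearest the median. The values for Dlx4 come from its brightest probe set, whose r with the second probe set was only 0.50. Correlations of that second probe set with other genes are not given here. Dlx2 with Dlx6os1 had r -0.81 (rho -0.83), and -0.55 over 8 arrays. Many genes followed Dlx4 more closely: among 7918 others with a mean of at least 4, Dlx4os ranked 403 and Dlx5 868 by r to it. By r to Dlx5, Dlx4 ranked 249. By r to Dlx2, Dlx6os1 ranked 7884, near the low end.

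The genes most like each member were the 3 with the highest r among 7918 others with a mean of at least 4. All had r between 0.89 and 0.97, by the brightest probe set of each gene. They were picked for their r, which is therefore given as a description. For Dlx2 the first was Gli1, a transcription factor induced by hedgehog signals (r 0.91, rho 0.79, and 0.85 over 8 arrays), followed by the kinase gene Abl2 (r 0.89) and Pus10 (r 0.89). Gli1 had 6.04, 6.50, 5.37, 4.53 and 5.78 in the denervated and 5.74, 6.05, 5.77, 4.91 and 5.99 in the contralateral incisors, lowest in both incisors of mouse 4, like Dlx2. Dlx4 was closest to Fermt2, which encodes an integrin-binding protein (r 0.97), the kinase gene Csk (r 0.96) and Kifap3 (r 0.95). Dlx5 was closest to the collagen gene Col8a1 (r 0.94), Rpp25l (r 0.94) and the calcium channel gene Cacna1c (r 0.92). Dlx1 was closest to Dpy19l1 (r 0.90), Wdr37 (r 0.90) and Slc25a12 (r 0.89). Dlx3 was closest to Supt5 (r 0.96), Anapc13 (r 0.95) and Zfp703 (r 0.95), and Dlx6 to Vdac2 (r 0.92), Suclg1 (r 0.92) and Cope (r 0.91).

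Denervated array 2 had the highest value of the 10 arrays for 5 of the 6 members, all but Dlx6, and for Dlx1as. Over all genes 21.2% had their highest value in this array. This count was made after the values were seen. The same array was high in Schwann cell and in pericyte and smooth muscle markers and low in odontoblast markers, with Mal at 5.87 against a mean of 1.60 in the 9 other arrays, S100b at 4.10 against 1.38 and Tagln, a smooth muscle gene, at 8.23 against 5.89. In mouse 2 the mean of the pericyte and smooth muscle markers differed by 1.22 (denervated minus contralateral), in mouse 3 by 1.08 and in the others by -0.19 to 0.19. The Schwann cell markers differed by 2.22 and 0.83 in mice 2 and 3 (-0.44 to -0.13 in the others). Of these 4 markers 1 had a mean of at least 4 and 2 a mean below 2, close to the bottom of the scale. In mice 2 and 3 the endothelial markers differed by 0.52 and 0.51 (-0.09 to -0.05 in the others) and the dental mesenchyme markers by 0.40 and 0.44 (-0.01 to 0.22). The macrophage markers differed by 0.88 and 1.06 in these mice and by 0.23 to 0.40 in the others, and 7 of 7 were higher on the denervated side in 5 of 5 mice, as were 6.58% of all genes; none passed the adjusted threshold. Mice 2 and 3 are also those with the largest differences of Dlx4 and Dlx5, although Dlx4 was higher in 4 of 5 mice and Dlx5 in 3 of 5. The part of the markers in those differences was not tested.

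In denervated array 3, where epithelial transcripts were low, no Dlx gene fell below the range of the other arrays. Enam, the enamelin gene, was at 0.82 there against a mean of 9.54 in the 9 other arrays, Amtn, an ameloblast gene, at 1.89 against 7.34 and Amelx, the amelogenin gene, at 8.23 against 12.9. These were the markers of the list farthest from the other arrays. Not every marker fell: Klk4, of the same list, was at 4.81, within the range of the others (4.12 to 5.97). Trp63, an epithelial transcription factor known to activate Dlx3, was at 6.06, below the 7.33 to 7.75 of the others, and was picked after its values were seen. Of the members, 5 lay within the range of the 9 other arrays. Dlx1 at 7.12 and Dlx2 at 8.12 were close to its lower end (7.10 and 8.09). Dlx3 was at 8.00 (7.89 to 8.31 in the others) and Dlx5 at 7.28 (6.99 to 7.55). Dlx6 was at 4.72, the highest of the 10 arrays by less than 0.01.

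**Figure D4:**
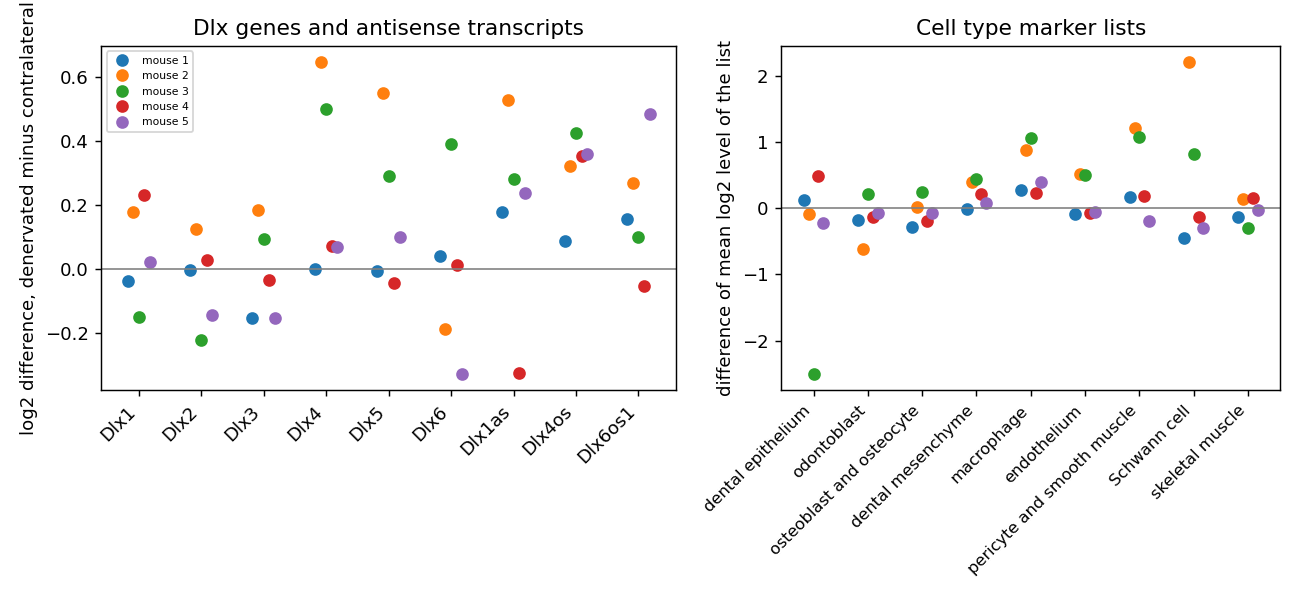
Left, log2 difference (denervated minus contralateral) within each mouse for the Dlx genes and 3 antisense transcripts; right, the same difference of the mean log2 level of each cell type marker list, on its own scale. Dlx4 and Dlx5 reach 0.65 and 0.55 in mouse 2, the mouse with the largest Schwann cell and pericyte differences, and mouse 3 stands apart in the epithelium list at -2.51.

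Genes that act around the Dlx family were taken from 3 lists. Of the signals upstream of Dlx genes in jaw and tooth (endothelin, BMP and FGF ligands and their effectors), 13 of 14 were measured, 6 had a higher and 7 a lower mean on the denervated side, and 0 passed in either direction, with a median difference of -0.04. Those with the smallest p were Bmp2, a ligand that can induce Dlx genes (0.25 ± 0.09, SE), Fgf9, a ligand of the dental epithelium (-0.26 ± 0.11), and Ece1, the enzyme that matures endothelin (0.44 ± 0.19). Bmp2 was higher in 4 of 5 mice, with 8.87 ± 0.04 against 8.62 ± 0.20 (SD, n = 5). Fgf9, dim at 2.98 ± 0.11 against 3.24 ± 0.22, was lower in 5 of 5, where 10.4% of all genes had the same direction in 5 of 5 mice. Each had a limma adjusted p of 0.790. The differences of Ece1 were 1.05 in mouse 2, 0.90 in mouse 3 and -0.03 to 0.21 elsewhere.

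Of the homeobox and partner factors of the tooth 12 of 14 were measured, 11 had a higher mean (55.8% of all genes did), 0 passed and the median was 0.11. The list's mean level differed by 0.32 in mouse 2, 0.28 in mouse 3 and 0.01 to 0.16 in the others. It shares 8 measured genes with the dental mesenchyme markers, of which 8 of 8 had a higher mean (median 0.17). Of the 4 factors outside that marker list 3 had a higher mean, with a median of 0.08. The mean level of these 4 differed by 0.15 in mouse 2, -0.05 in mouse 3 and -0.10 to 0.06 in the others. Prrx2, a homeobox gene of facial mesenchyme, differed by 0.56 ± 0.20 (SE), with 1.26 in mouse 2 and 0.88 in mouse 3 (limma adjusted p 0.790). Pax9, needed for tooth development, differed by 0.41 ± 0.16 and was higher in 5 of 5 mice, by 0.20 to 0.76, as were 6.58% of all genes. For Barx1, near the bottom of the scale, the difference was 0.14 ± 0.08.

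Of the described DLX targets in jaw, bone and tooth 15 of 18 were measured, 6 had a higher and 9 a lower mean, 0 passed and the median was -0.09. The list's mean level was 6.41 in denervated array 3, where epithelial markers were low, and 7.19 to 7.51 in the 9 other arrays. It shares 4 measured genes with the dental epithelium markers, of which 10 of 11 had a lower mean (median -0.40). The 11 targets outside that marker list had 5 higher and 6 lower means and a median of -0.07, and their mean level differed by 0.26 in mouse 3. The Wnt inhibitor gene Dkk1, also on the osteoblast and osteocyte marker list, differed by -0.36 ± 0.14 (SE), lower in 4 of 5 mice. Dspp, the dentin sialophosphoprotein gene, differed by -0.18 ± 0.08 and was lower in 4 of 5 mice, with 12.1 ± 0.14 against 12.3 ± 0.08 (SD, n = 5), while Dlx3 differed by -0.01. The target list shares 4 measured genes with the 8 odontoblast markers, Dspp among them. Of those 8 markers 6 had a lower mean (median -0.14), where 55.8% of all genes had a higher one. At an unadjusted limma p under 0.05 there were 2, Dspp included, against 6.21% of all genes, and 0 after adjustment. The mean of that list was lower in 4 of 5 mice, with -0.62 in mouse 2 and -0.17 to 0.22 in the others. The part of the marker lists in these differences was not tested. Klk4, a protease of maturing enamel, differed by -0.40 ± 0.30 and was lower in 3 of 5 mice, with -1.31 in mouse 2 and 0.39 in mouse 3.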

How the data were processed

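The authors deposited a log2 intensity for each probe set and array. Per the submitters' processing notes it comes from RMA (background correction, normalization between arrays, summary of probes); a version or further step is not given in the sources used here. The log2 scale was inferred from the range of values, whose low array medians and values below 0 leave a further background correction possible. Total RNA was labelled with biotin, per the labels. The values were used as deposited, without detection calls, so low values cannot be told from background.

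Of 45101 probe sets 64 controls were left out, and 34945 of the rest name 1 gene in the platform annotation supplied (932 several, 9160 none). The probe set with the highest mean represents each of 18193 genes. All 6 members were matched by symbol in RefSeq.

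Denervated and contralateral arrays were compared by limma 3.58.1 (lmFit, eBayes) in R 4.3.3, with Benjamini-Hochberg adjustment over all genes and a threshold of 0.05; SE is limma's. Over genes, deviations from group means had r of 0.18 to 0.57 in the 5 pairs of equal number, against -0.41 to 0.22 in the 20 others, and the design text names both incisors of 5 mice, so numbers were taken to pair the samples. The mouse as a block was an alternative. The labels do not say whether arrays were processed in batches, and p-values measure the spread between these samples only.

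Genes named are the members, their measured antisense transcripts, the 3 smallest p values of each of 3 lists, the 3 most correlated genes of each member (clone names passed over) and up to 3 markers where an array stands apart; others are said to be picked after their values were seen. Members and lists were chosen with earlier results of these data known. The fit was tested on simulated data. Alternatives were the block, leaving out arrays or mice, normalization, filters, probe set summaries, variance model and exact permutations.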

Additional observations from a re-analysis of the deposited data

Results flagged for a closer look

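In 60 groups of 5 arrays (the family's probe sets, the list genes named and the cell type marker lists), 5 had an array far from the others by Dixon's test at the 95% level, where chance gives about 1 in 20. Denervated array 2 was far above the others for Dlx3 (8.31) and for Ece1 (7.01). Denervated array 4 was far above the others for Dlx6os1 (7.66), and the contralateral array of the same mouse had 7.71. Denervated array 3 was far below the others in the mean of the dental epithelium markers (5.96) and in that of the skeletal muscle markers (1.13), the latter near the low end of the scale in all arrays.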

How the results depend on the processing

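Of 158 recomputed member differences, 142 kept their direction, 16 reversed and 0 passed the threshold. The smallest limma adjusted p was 0.420 (Dlx4, without both arrays of mouse 4, with the replicate block). Some of the 142 were fixed in advance. The replicate block, the exact tests, the variance model and the filters on low values leave each member's difference as it was. The mean of probe sets does so for members with 1 probe set. Dlx4 and Dlx5 were above 0 in every alternative run, between 0.05 and 0.37 and between 0.02 and 0.23. Leaving out 1 array gave -0.021 to 0.092 for Dlx1, -0.114 to 0.0089 for Dlx2, -0.085 to 0.020 for Dlx3, 0.20 to 0.33 for Dlx4, 0.12 to 0.22 for Dlx5 and -0.087 to 0.111 for Dlx6. The differences were 0.05, -0.04, -0.01, 0.26, 0.18 and -0.01 for Dlx1 to Dlx6. With the replicate block (arrays of equal number paired) they stay the same by design, because each mouse gave 1 array per side. Only the errors and p-values could change, and no member's call did. Leaving out both arrays of a mouse, with the block, reversed Dlx2 without mouse 3 (0.0012), Dlx3 without mouse 1 or 5 (0.023 each) and Dlx6 without mouse 2 or 5 (0.029 and 0.064); the cause was not tested. In 25 of 26 settings 0 genes passed, and without mouse 4, with the block, 1 gene did, which is no Dlx gene. Intensities near the low end, as for Dlx6os2, limit what can be measured.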
